A study of Mus musculus with 9 samples.

Results

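The proteins of the mitochondrial ribosome were followed in nuclear RNA of mouse hippocampal pyramidal cells through the 78 gene symbols of the deposited expression table that begin with Mrpl or Mrps and go on with a number. These were 49 Mrpl genes, named for the large subunit, and 29 Mrps genes, named for the small subunit, of 31052 genes in all. The rule uses symbols alone, with no level or fold in it. Pseudogene symbols, such as Mrpl48-ps, did not match. The hippocampal pyramidal cell is the principal excitatory neuron of the hippocampus. The cells came from wild-type mice. Two-photon imaging in the navigating animal had sorted them into place cells, whose firing is tied to a position in the environment, and silent cells. Their nuclei were phototagged and collected, and 9 libraries were made, 5 from place cells and 4 from silent cells. The labels give the genotype WT for all 9 and name no treatment, time point or age. Each title carries its own mouse number, but the labels do not state that each library is a separate animal or how many nuclei each holds. The p-values therefore measure only the spread between these libraries, which may be technical.

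The mitochondrial ribosome sits in the mitochondrial matrix and translates the few messenger RNAs of the mitochondrial genome, which code for core subunits of the respiratory chain and of the ATP synthase. Its ribosomal RNAs come from the mitochondrial genome, while every one of its proteins is coded in the nucleus, made in the cytosol and imported. Neurons depend on the respiratory chain for the ATP that drives ion pumping and transmission. Nuclear RNA here means the RNA of the collected nuclei, so the values speak neither of the protein nor, by themselves, of the RNA in the cytosol. RNA of the mitochondrial genome, which is not made in the nucleus, was found in every library, at levels given below. Whether part of the RNA of the members also came from outside the nucleus was not tested. The whole assembly has a large subunit, which holds the peptidyl transferase centre, the exit tunnel, the central protuberance and the stalk, and a small subunit, which holds the messenger RNA and the decoding site.

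Depth was 15295084 to 21956790 reads in the place libraries and 14028519 to 22338538 reads in the silent libraries, counted over genes whose reads could be worked back from the deposited values. Levels are given as RPM, reads per 1000000 recovered reads of the library. The number of genes with reads was 16613 to 20990 in place libraries and 14176 to 17899 in silent libraries, lowest in silent replicate 1. No molecular identifiers are named in the labels, so limits drawn from read numbers cover counting error only. A gene without reads could still have had up to 3 reads by counting error, which is 0.134 to 0.214 RPM in these libraries. The labelled cell type was checked on 8 pyramidal neuron markers, whose summed level was 3049.8 to 4206 RPM in place and 3431 to 4511 RPM in silent libraries. Markers of other cells were present as well: the summed level of 11 oligodendrocyte markers was 190.0 to 3303 RPM in place and 119.7 to 551 RPM in silent libraries, and that of 9 astrocyte markers was at most 1931 RPM, in place replicate 3. Microglia markers (9 genes) reached 538 RPM in silent replicate 4, interneuron markers (8 genes) 768 RPM in silent replicate 3 and dentate granule markers (5 genes) 234 RPM in place replicate 3. Xist, the RNA that coats the inactive X chromosome, was at 773 to 1447 RPM in place replicates 2 to 5, and Ddx3y, a Y-linked gene, was at 228 RPM in place replicate 1 and at 129.6 to 319 RPM in the 4 silent libraries. Silent replicate 1 held Xist too, at 317 RPM. The place and silent libraries thus differ in these genes, and with 1 place library of the Ddx3y kind no comparison within one kind was possible, so that the cell class and the X and Y pattern cannot be told apart.

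The promoters of the members come first. Promoters of genes for mitochondrial proteins are known for sites of NRF1, of ETS factors such as GABP (also called NRF2) and of YY1. RefSeq windows of 300 bases, from 250 before to 50 after the gene start, build GRCm38.p6, were at hand for 69 of the 78 members. Short sequences, 4 in number, were counted on both strands of each window, none of which is contained in another. The core of the site for ETS factors, searched as CCGGAAG, was in 26 of 69 member windows (37.7%), against 9.93% of all 27025 genes with a window and 17.0% of genes with reads here. The core of the YY1 site, searched as AAGATGGCG, was in 8 windows (11.6%), against 1.64% of all and 2.92% of genes with reads. The palindrome of the NRF1 site, in capitals in the Mrpl32 window printed here, was in the windows of Mrpl9, Mrpl32 and Mrpl39 (4.35%, against 1.07% of all genes and 1.97% of genes with reads). The palindrome that ZBTB33 binds was in that of Mrpl57 alone (1.45%, against 0.525% and 0.992%). In all, 35 of 69 members held at least 1 of the 4 sequences, and Mrps18a, Mrps27 and Mrpl57 held more than 1. The median GC content was 58.0% in member windows and 52.7% over all genes with a window. Its part in these shares was not tested. A match is a stretch of letters and not a bound site, and these shares are a description with no test.

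The windows of 7 members are shown, 5′ to 3′ along the gene, in lower case with the searched sequence in capitals on whichever strand it lies. Mrps27 is shown because it holds both the ETS and the YY1 core; Mrpl36, Mrpl37 and Mrpl42 because they hold the YY1 core and are among the members with the smallest p below; Mrpl32 for its NRF1 palindrome; Mrpl3 for the ETS core in one of the most abundant members; and Mrps11 because its window is shared in part with that of Mrpl46. On GRCm38.p6 they lie at chr13:99344536-99344835 (+ strand) for Mrps27, chr13:73330759-73331058 (+ strand) for Mrpl36, chr4:107066817-107067116 (- strand) for Mrpl37, chr10:95501900-95502199 (- strand) for Mrpl42, chr13:14612988-14613287 (- strand) for Mrpl32, chr9:105053018-105053317 (+ strand) for Mrpl3 and chr7:78782881-78783180 (+ strand) for Mrps11.
Mrps27: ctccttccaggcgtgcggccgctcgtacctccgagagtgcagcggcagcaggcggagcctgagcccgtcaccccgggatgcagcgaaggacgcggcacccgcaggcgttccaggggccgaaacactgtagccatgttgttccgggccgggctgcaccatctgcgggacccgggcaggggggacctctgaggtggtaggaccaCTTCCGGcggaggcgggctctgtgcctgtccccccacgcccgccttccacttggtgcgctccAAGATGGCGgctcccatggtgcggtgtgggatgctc
Mrpl36: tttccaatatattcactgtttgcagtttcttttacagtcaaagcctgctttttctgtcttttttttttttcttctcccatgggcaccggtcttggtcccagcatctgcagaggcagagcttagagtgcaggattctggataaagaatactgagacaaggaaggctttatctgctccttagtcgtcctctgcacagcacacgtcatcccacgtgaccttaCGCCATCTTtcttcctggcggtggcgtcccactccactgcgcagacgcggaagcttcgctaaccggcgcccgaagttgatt
Mrpl37: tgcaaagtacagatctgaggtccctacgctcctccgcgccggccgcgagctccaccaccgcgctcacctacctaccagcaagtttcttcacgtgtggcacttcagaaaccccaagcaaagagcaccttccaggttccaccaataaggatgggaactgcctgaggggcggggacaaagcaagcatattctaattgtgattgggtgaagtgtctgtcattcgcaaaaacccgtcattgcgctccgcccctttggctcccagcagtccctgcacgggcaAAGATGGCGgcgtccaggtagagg
Mrpl42: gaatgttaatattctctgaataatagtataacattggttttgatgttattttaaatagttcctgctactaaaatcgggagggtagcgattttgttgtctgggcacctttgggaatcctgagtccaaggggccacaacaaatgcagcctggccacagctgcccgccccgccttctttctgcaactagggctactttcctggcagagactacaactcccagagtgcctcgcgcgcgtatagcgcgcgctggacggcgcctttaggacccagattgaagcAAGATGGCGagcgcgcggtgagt
Mrpl32: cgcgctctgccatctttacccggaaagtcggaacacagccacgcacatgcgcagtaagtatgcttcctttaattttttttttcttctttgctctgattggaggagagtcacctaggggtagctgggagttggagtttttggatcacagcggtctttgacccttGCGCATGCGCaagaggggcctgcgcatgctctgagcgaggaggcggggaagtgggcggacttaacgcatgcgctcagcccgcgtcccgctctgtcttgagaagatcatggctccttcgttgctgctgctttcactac
Mrpl3: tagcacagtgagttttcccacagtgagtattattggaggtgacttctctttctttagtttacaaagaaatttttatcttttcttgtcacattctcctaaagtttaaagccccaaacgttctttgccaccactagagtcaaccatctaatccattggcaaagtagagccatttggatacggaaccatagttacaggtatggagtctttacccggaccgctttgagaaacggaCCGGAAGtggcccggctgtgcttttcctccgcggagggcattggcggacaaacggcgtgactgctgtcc
Mrps11: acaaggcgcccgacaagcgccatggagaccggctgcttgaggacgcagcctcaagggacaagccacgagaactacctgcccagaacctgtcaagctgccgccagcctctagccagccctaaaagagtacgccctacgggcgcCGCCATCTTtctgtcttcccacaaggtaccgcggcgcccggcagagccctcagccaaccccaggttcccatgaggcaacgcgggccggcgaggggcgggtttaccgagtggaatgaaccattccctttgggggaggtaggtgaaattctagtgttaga

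A gene reading the opposite way from within 1000 bases of the start was the other common feature. It was found for 26 of 69 members (37.7%), against 12.3% of all genes with a window and 18.1% of genes with reads. Several partners also act in mitochondria. Mrpl46 and Mrps11, a protein of each subunit, start back to back, with 141 bases common to both windows. Mrpl43 faces Twnk, the helicase of mitochondrial DNA, Mrps12 faces Sars2, the mitochondrial seryl-tRNA synthetase, and Mrps27 faces Ptcd2, a pentatricopeptide RNA-binding protein. Mrpl47 faces Ndufb5, a complex I subunit. The mean level was 20.2 RPM for Mrpl46 and 12.1 RPM for Mrps11. Their log2 folds, place minus silent, were 1.90 and 0.88, both positive and neither past the test described below. Other pairs had folds of the same sign, as Mrps27 (0.90) and Ptcd2 (0.31), or of opposite sign, as Mrpl47 (0.40) and Ndufb5 (−0.25). Whether partners change together was not tested. Levels of members with and without the ETS core overlapped: the median per kilobase of exon was 19.9 RPM for the 26 with the ETS core (4.48 to 103.7) and 13.8 for the 43 without (1.65 to 194).

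**Figure D1:**
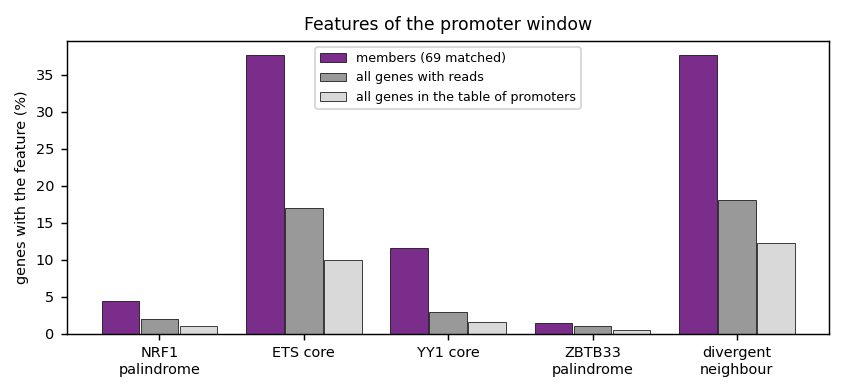
Percentage of genes whose 300-base promoter window holds each searched sequence, or has a divergent neighbour, for the 69 matched members (purple), all genes with reads (dark grey) and all genes with a window (light grey). The ETS core and the divergent neighbour are each at 37.7% in the members.

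All 78 members had reads and all passed the filter on low values, at least 1 RPM in at least 4 libraries. Levels between genes were compared per kilobase of exon, in RPM per kilobase, with exon lengths from the GENCODE M21 basic annotation of the GRCm38 build. The length is that of all exon bases of all listed transcripts of a gene. A gene that uses only part of these exons is thus placed too low, and which exons were used was not tested. The median member was at 15.3, the Mrpl members at 15.1 and the Mrps members at 15.9. Means over the 9 libraries ran from 1.65 to 194, a range of 118-fold. Without the length, mean levels ran from 3.03 RPM for Mrps34 to 151 RPM for Mrpl41, with 11 members above 50 RPM and 9 under 10 RPM, and the 10 members with the highest mean RPM held 34.8% of the summed level.

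Mrpl41, a large subunit protein with no counterpart in the bacterial ribosome, stood at the top. It was at 177, 164, 76.2, 206 and 163 RPM in place replicates 1 to 5 and at 189.7, 118, 141 and 121 RPM in silent replicates 1 to 4, or 194 ± 52.4 RPM per kilobase (SD over 9 libraries). Place replicate 3 was the lowest, and the groups overlapped. Mrpl53, a protein of the stalk, followed at 104 ± 42.1 per kilobase (47.5 to 191 over the 9 libraries). In the annotation a same-strand gene model, Gm42688, covers all exons of Mrpl53, and that symbol is not used in the deposited table. Mrpl33, a small protein of the large subunit kept from bacteria, was at 69.0 ± 38.5 per kilobase. Mrpl33 was highest in place replicate 3, at 74.9 RPM against 10.2 to 41.3 RPM in the other 8 libraries. Mrpl42, without bacterial counterpart, was at 59.1 ± 35.4 and Mrpl4, which lines the exit tunnel, at 58.0 ± 15.3. The spread of each of the lower 4 of these 5 overlaps that of its neighbour in the order.

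The lowest members per kilobase were Mrps25, Mrps34, Mrpl19, Mrps35 and Mrpl11. Mrps25, a small subunit protein, was at 1.65 ± 2.58 per kilobase, with 1.18, 26.1, 0, 10.2 and 4.62 RPM in the place and 0, 2.24, 45.3 and 0.537 RPM in the silent libraries. Silent replicate 3 was the highest, followed by place replicate 2, and 1 library of each group had no reads. Of its exon bases, 58.2% are shared with Nr2c2 on the opposite strand, a nuclear receptor gene at 112 RPM, and the strand setting of the counting is not given in the sources used here, so reads of the 2 genes cannot be told apart there. Mrps34 was at 3.31 ± 2.79 and Mrpl19, with exons shared for 39.2% of their bases with Gcfc2 on the opposite strand, at 3.46 ± 1.34. Mrps35 was at 3.92 ± 3.40 and Mrpl11, a protein of the stalk base, at 4.18 ± 2.69. In all, 26 members shared exon bases with another gene.

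**Figure D2:**
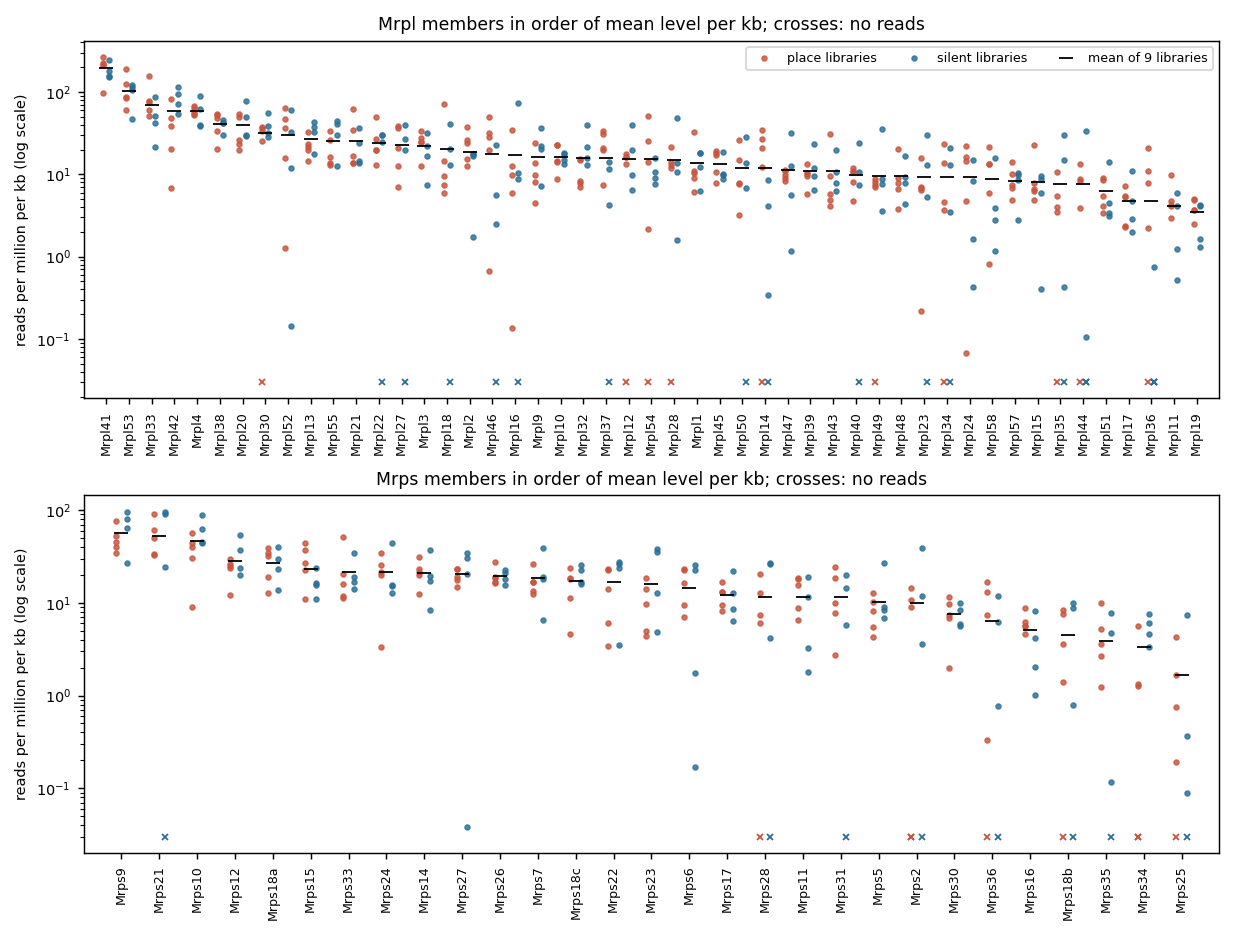
Level of each member in RPM per kilobase of exon (log scale) for the 49 Mrpl members above and the 29 Mrps members below, in order of mean level. Points are libraries (orange place, n = 5; blue silent, n = 4), black bars the mean of 9, and crosses at the foot of the axis libraries without reads, where 1 cross can stand for more than 1 library; the means run from 194 for Mrpl41 to 1.65 for Mrps25.

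By structure and role, levels were spread in every group. In the stalk, which receives translation factors, Mrpl10 was at 16.3 ± 4.49 RPM per kilobase and Mrpl12, which is also known to bind the mitochondrial RNA polymerase, at 15.4 ± 11.0. Mrpl10 was among the steadiest members, at 14.9 to 38.7 RPM. Mrpl12 had no reads in place replicate 1 and 8.41 to 52.3 RPM in the other 8. Near the peptidyl transferase centre, Mrpl3 was the second most abundant member by RPM, at 175, 142, 66.0, 129.8 and 127 RPM in place and 38.9, 114, 86.0 and 165 RPM in silent libraries, and at 22.3 ± 8.67 per kilobase over 5205 bases of exon. Silent replicate 1 was the lowest for Mrpl3. At the exit of the tunnel, where the ribosome meets the inner membrane, Mrpl45 was at 13.4 ± 4.74 and Mrpl44, which has an RNase III fold, at 7.63 ± 11.0. Mrpl45 was steady at 7.80 to 19.1 per kilobase, while Mrpl44 was at 12.0, 5.60, 0, 19.1 and 12.5 RPM in place and 0, 0.150, 0 and 48.4 RPM in silent libraries. For Mrpl44, silent replicate 4 was the highest, and place replicate 3 and silent replicates 1 and 3 had no reads.

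Mrpl58, also called ICT1, is a peptidyl-tRNA hydrolase built into the large subunit that can free stalled ribosomes. It was at 8.68 ± 7.39 per kilobase and had reads in all 9 libraries, from 2.09 to 55.6 RPM. In the small subunit, Mrps12, part of the decoding centre, was at 28.1 ± 11.9 and Mrps6 at 14.3 ± 9.88 per kilobase. Mrps6 shares 18.8% of its exon bases with Slc5a3 and 36.1% with the gene model Gm49711 on the same strand. Mrps27, a pentatricopeptide RNA-binding protein, was at 27.8, 32.9, 42.8, 42.8 and 35.1 RPM in place and 0.0713, 37.9, 63.2 and 56.1 RPM in silent libraries. The 8 libraries other than silent replicate 1 all had at least 27.8 RPM of Mrps27, while silent replicate 1 had 1 read.

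The 3 paralogs of one bacterial protein, S18, differed in level. Mrps18a was at 27.2 ± 10.4 and Mrps18c at 17.4 ± 6.48 RPM per kilobase, against 4.48 ± 4.12 for Mrps18b. The lowest library of Mrps18a, at 12.8 per kilobase, was above the highest of Mrps18b, at 9.87. Mrps18b shares 59.1% of its exon bases with an antisense gene model, Gm16279, itself at 3.98 RPM. Despite their symbols, the proteins of Mrps18a and Mrps30 sit in the large subunit, and Mrps30 was at 7.54 ± 2.90. Mrps36, now assigned to the 2-oxoglutarate dehydrogenase complex rather than to the ribosome, was at 6.32 ± 6.53 per kilobase with reads in 7 of 9 libraries. The 46 members with a bacterial counterpart had a median of 16.3 and the 31 without one 12.0, a difference that was not tested.

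How steadily a member was detected differed between members and between libraries. Of 702 pairs of a member and a library, 43 (6.13%) had no reads, against 9.64% over all genes tested. Reads were found in all 9 libraries for 50 of the 78 members (64.1%), 30 Mrpl and 20 Mrps, against 61.6% of all genes tested. Members without reads numbered 9, 0, 6, 0 and 3 in place replicates 1 to 5 and 16, 2, 3 and 4 in silent replicates 1 to 4. Silent replicate 1, with the fewest genes detected and the fewest reads, lacked the most members and had the lowest or tied lowest level for 26 of them. Silent replicate 4 was the highest library for 18 members, place replicate 3 for 13, silent replicate 3 for 12 and silent replicate 1 for 11. Mrpl36 had reads in 5 libraries, the fewest of any member, and Mrps2 and Mrpl44 in 6.

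Gaps were found in well-read members too. Among the 70 members with a median of at least 100 reads, 24 pairs in 20 members had no reads (3.81%), close to the 4.20% of all genes tested of that depth. Of these 24, silent replicate 1 held 9 and place replicate 1 held 7. The proteins of the cytosolic ribosome were set beside them: 77 of their genes had such a median, and 0.144% of their pairs had no reads. The coefficient of variation over the 9 libraries was 62.2% at the median of the members, 66.6% over all genes tested and 42.4% over the 84 cytosolic ribosomal protein genes, whose median level was 32.9 RPM against 23.8 RPM for the members. The steadiest members were Mrps26, a small subunit protein, at 82.2, 69.7, 119, 78.5 and 71.5 RPM in place and 96.6, 66.1, 89.0 and 76.9 RPM in silent libraries (19.9%), then Mrpl4, Mrpl38, Mrpl41 and Mrpl10, all under 30%. These members, named after their values were seen, overlapped between the groups. At the other end, 11 members were above 100%, led by Mrps25 (156%) and Mrpl36 (153%). The level was at or above 10 RPM in all 9 libraries for 30 members.

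Summed over members, the large subunit had close means in both groups, with 1 silent library far above the rest. The summed Mrpl level was 1547, 1429, 1672, 1525 and 1598 RPM in place replicates 1 to 5 and 1369, 1421, 1437 and 1998 RPM in silent replicates 1 to 4. Silent replicate 4 stood above the other 8 libraries, which lay within 1369 to 1672 RPM. The means were 1554 ± 89.7 RPM (SD, n = 5) in place and 1556 ± 296 RPM (SD, n = 4) in silent libraries, a difference smaller than the spread of either group. Without silent replicate 4, the place mean was the higher by 145 RPM. That library also had the highest summed level of the 9 microglia markers, 538 RPM against 16.7 to 387 RPM in place libraries and 34.6 to 48.7 RPM in the other silent libraries. Each of these 9 markers had reads in at least 1 library, and none of them had reads in all 9 libraries. Place replicate 2, with 387 RPM of these markers, had the lowest summed Mrpl level of the place libraries, 1429 RPM. Silent replicate 4 was also the deepest library, at 22338538 reads, with 15515 genes with reads. It had the lowest summed oligodendrocyte markers, 119.7 RPM. The part of any of these measures in the sum was not tested.

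The summed Mrps level was 740.5, 792, 711, 945 and 809 RPM in place and 916, 809, 912 and 988 RPM in silent libraries. Place replicate 4 lay above 3 of the 4 silent libraries, so the groups overlapped. Their means were 799 ± 90.1 RPM (SD, n = 5) and 906 ± 73.7 RPM (SD, n = 4). The Mrpl share of the 2 sums was 61.8 to 70.1% in place libraries, with a mean of 66.1 ± 3.20% (SD, n = 5), and 59.9 to 66.9% in silent libraries, with a mean of 62.9 ± 3.10% (SD, n = 4). With Mrps30 and Mrps18a counted in the large subunit, where their proteins sit, the means were 68.3 ± 3.19% and 65.1 ± 2.84%. Sums over the members were given no test. They also weigh cells and RNA together, since in bulk libraries fewer cells of a type and less RNA per cell cannot be told apart.

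**Figure D3:**
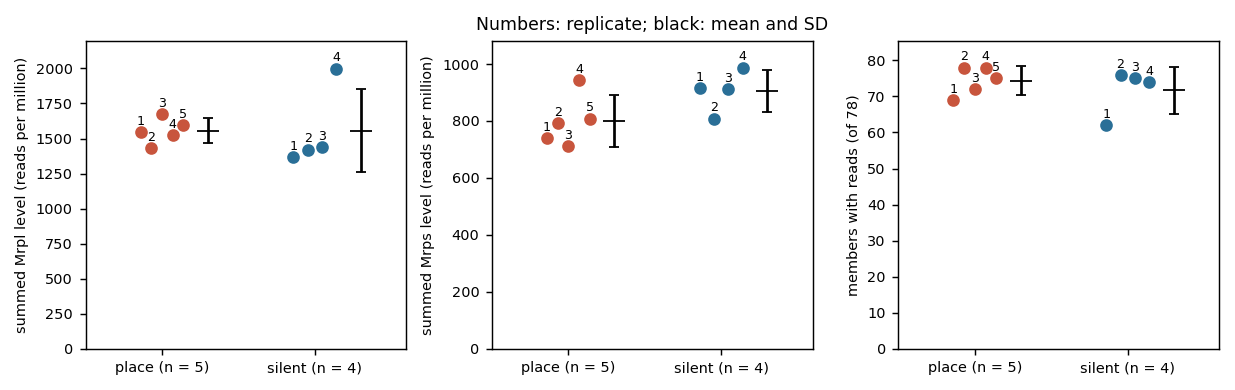
Summed Mrpl level, summed Mrps level (both in RPM) and number of members with reads, for each place (orange, n = 5) and silent (blue, n = 4) library; numbers give the replicate and black bars the mean and SD. The summed Mrpl level of silent replicate 4 (1998) stands above all others, and silent replicate 1 has the fewest members with reads (62).

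Setting place cells against silent cells asks whether pyramidal cells with a spatial code differ in nuclear RNA from those without. None of the 78 members passed an adjusted p of 0.05 (limma on log2 of RPM + 1, Benjamini-Hochberg over all 14146 genes tested), and neither did any other gene (0.0% of genes called). The smallest adjusted p was 0.889 among the members and 0.648 among all genes. At an unadjusted p under 0.05, 1 member was higher in place cells, against 4.15% of all genes, and 0 were lower, against 1.31% (5.46% in either direction). That member, Mrpl36, passed the filter on low values through 4 place libraries alone, so its side of the test leans on the filter and the count of 1 supports nothing. The voom method gave 1 higher and 0 lower, with 5.65% of all genes at that p in either direction and 0 past its adjusted p. No member had groups that did not overlap, against 1.22% of all genes higher and 0.615% lower in place cells.

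Folds of the members lay on both sides of 0, as those of all genes did. They were positive for 44 members and negative for 34, against 57.4% positive and 42.6% negative over all genes tested. The median log2 fold was 0.08 over the members (0.14 for Mrpl and 0.02 for Mrps), against 0.13 over all genes tested. Without silent replicate 1 the members' median was −0.08, with 42 negative, and without silent replicate 4 it was 0.21, with 30 negative. With all 9 libraries it was −0.03 after quantile normalization, with 40 negative. It was 0.002 with a term for the count of genes detected, with 39 negative. The sign of the median was thus not settled. By role, the folds were positive for 4 of 6 members of the central protuberance, 2 of 5 of the stalk, 5 of 8 at the tunnel exit, 4 of 5 around the peptidyl transferase centre and 2 of 8 on the decoding and messenger RNA path of the small subunit. Beside these folds, the 10 oligodendrocyte markers tested were all on the positive side. Of them, 5 were at an unadjusted p under 0.05, against 4.15% of all genes (limma, none past an adjusted p of 0.05). Only 9 were tested without place replicate 1, 2, 3 or 5, and all 10 without any silent library. The count of 10 thus leans on the filter through place libraries and supports nothing. It was 9 positive and 1 negative by voom or with 0.1 added, and 8 and 1 without place replicate 1 or 3. All 11 markers of that list had reads, 3 of them in all 9 libraries, and with their level as a term in the fit the median log2 fold was 0.18 over the members and 0.18 over all genes, and no member passed.

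**Figure D4:**
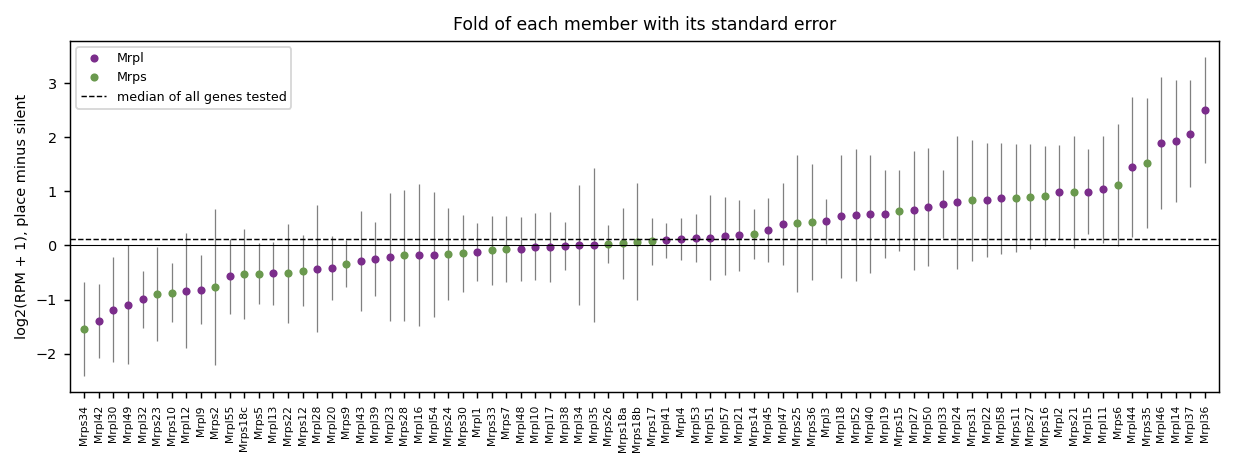
Log2 fold of each member on the log2(RPM + 1) scale, place minus silent, with its standard error, in order of fold (purple Mrpl, green Mrps); the dashed line is the median of all genes tested (0.13). The folds run from −1.54 (Mrps34) to 2.50 (Mrpl36), and none passed the test.

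The 5 members with the smallest p on the positive side were Mrpl36, Mrpl37, Mrpl14, Mrpl46 and Mrps35. Mrpl36, a small zinc-binding protein of the large subunit, was at 2.62, 9.04, 24.4, 12.8 and 0 RPM in place and 0, 0, 0.859 and 0 RPM in silent libraries. Of the silent libraries 1 had reads, 14 in number, while 4 of 5 place libraries had 40 to 464 reads. It passed the filter on low values only through these 4 place libraries, with at most 0.859 RPM in a silent library, and was not tested with any of them left out, so its fold is a description. The log2 fold was 2.50 (SE 0.98), with adjusted p = 0.889 (limma). The ratio of mean levels was 45.5, since adding 1 RPM before the logarithm understates the fold of a low gene. Mrpl36 was low even where found, with 953 reads in all libraries together, and shares 2.58% of its exon bases with Ndufs6 on the opposite strand.

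Mrpl37, a large subunit protein with no bacterial counterpart, was at 46.8, 49.9, 11.0, 31.2 and 29.6 RPM in place and 0, 6.38, 21.3 and 17.3 RPM in silent libraries. Place replicate 3 lay within the range of the silent libraries. The log2 fold of Mrpl37 was 2.07 (SE 0.99), with unadjusted p = 0.0516 and adjusted p = 0.895 (limma), and without silent replicate 1, which had no reads, it was 1.10. Mrpl14, at the face where the subunits meet, was at 0, 7.99, 22.1, 17.3 and 13.4 RPM in place and 0, 2.64, 5.52 and 0.224 RPM in silent libraries. Reads were missing in 1 library of each group, and the other 4 place libraries were above the silent ones. The log2 fold of Mrpl14 was 1.93 (SE 1.13), with adjusted p = 0.895 (limma), and 0.78 in a fit with a term for the count of genes detected.

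Mrpl46, of the central protuberance, was at 55.7, 0.758, 31.8, 36.3 and 22.6 RPM in place and 2.85, 6.43, 25.8 and 0 RPM in silent libraries. Place replicate 2 was below 1 RPM, and 3 of the 4 silent libraries lay within the place range. Its log2 fold was 1.90 (SE 1.22), with adjusted p = 0.895 (limma), and 1.10 without silent replicate 4. Mrps35, of the small subunit, was at 11.2, 21.7, 5.11, 41.2 and 14.8 RPM in place and 0, 32.8, 0.491 and 19.6 RPM in silent libraries. Here silent replicates 1 and 3 were at or near 0 and silent replicates 2 and 4 were within the place range, and the log2 fold of 1.52 (SE 1.20) went with a ratio of mean levels of 1.42. Its adjusted p was 0.902 (limma). The log2 fold of Mrps35 was 0.68 without silent replicate 1, 0.87 without silent replicate 3, 2.38 without silent replicate 2 and 0.02 in the fit with a term for genes detected.

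On the negative side the smallest p belonged to Mrpl42, Mrpl32, Mrps34, Mrps10 and Mrpl9. Mrpl42 was at 4.58, 13.9, 55.3, 26.1 and 32.9 RPM in place and 64.7, 78.9, 48.2 and 36.7 RPM in silent libraries. Place replicate 3 lay within the silent range and the other 4 place libraries below it. The log2 fold was −1.40 (SE 0.68), with unadjusted p = 0.0556 and adjusted p = 0.895 (limma), and −0.92 without place replicate 1. Mrpl32, a zinc-binding protein whose precursor is cut by the m-AAA protease before it joins the large subunit, was at 24.6, 21.4, 23.3, 44.9 and 46.6 RPM in place and 119.7, 47.1, 65.3 and 38.9 RPM in silent libraries. Silent replicate 1 was the highest, and place replicates 4 and 5 lay within the silent range. Its log2 fold was −0.995 (SE 0.53), with adjusted p = 0.895 (limma).

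Mrps34, of the small subunit, was low throughout, at 0, 5.19, 0, 1.23 and 1.17 RPM in place and 6.91, 4.24, 5.52 and 3.04 RPM in silent libraries. All 4 silent libraries had reads, 2 place libraries had none, and place replicate 2 lay within the silent range. The log2 fold was −1.54 (SE 0.88), with adjusted p = 0.895 (limma). Mrps10, kept from the bacterial small subunit, was at 47.4, 67.5, 10.7, 36.3 and 52.6 RPM in place and 53.7, 52.0, 105 and 74.8 RPM in silent libraries, with place replicate 3 the lowest. Mrpl9, of the large subunit, was at 63.0, 25.6, 11.6, 35.5 and 21.0 RPM in place and 18.9, 52.4, 56.6 and 95.8 RPM in silent libraries. For both the groups overlapped, and the log2 folds were −0.88 (SE 0.54) and −0.82 (SE 0.63), with adjusted p of 0.895 and 0.902 (limma). Without place replicate 3 they were −0.45 and −0.53, and for Mrpl9 the fold was −0.49 without silent replicate 4 and −1.25 without silent replicate 1. With the oligodendrocyte level as a term they were −0.41 for Mrps10 and −0.35 for Mrpl9.

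**Figure D5:**
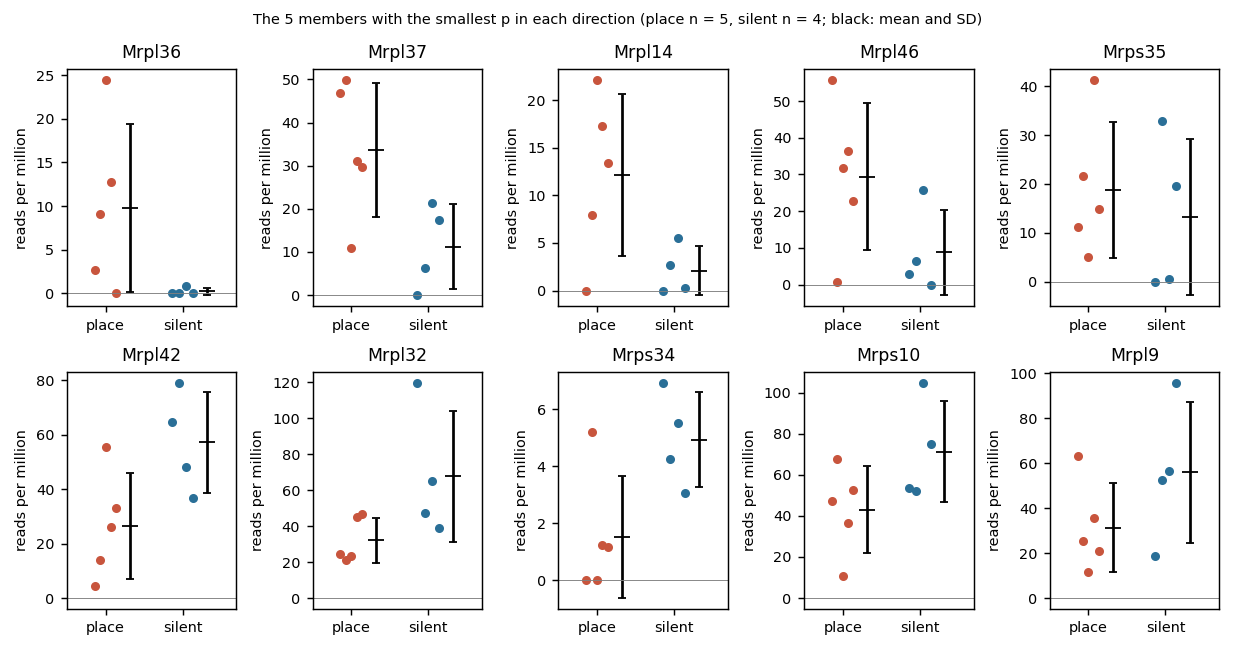
Level in RPM of the 5 members with the smallest p on the positive side (upper row) and on the negative side (lower row), in each place (orange, n = 5) and silent (blue, n = 4) library, with mean and SD in black. In every panel at least 1 library of one group lies within the range of the other.

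Other genes of mitochondrial translation showed no call either (0 past an adjusted p of 0.05 in each of 6 lists, by limma and by voom). Among 5 further ribosomal proteins with other names, 3 folds were positive and 2 negative, the smallest p belonging to Chchd1 (−0.81, SE 0.59) and Dap3 (0.13, SE 0.48), given here with their log2 folds. Without silent replicate 1, silent replicate 3 or place replicate 4 that count was 1 and 4, and with the term for genes detected 0 and 5. Of 21 assembly factors tested, 17 had a positive and 4 a negative fold, with a median of 0.52. Without silent replicate 1, which had fewer genes detected, 13 were positive and 7 negative with a median of 0.28, and in a fit with a term for the count of genes detected 11 were positive and 10 negative with a median of 0.01. In this list Eral1, a GTPase that chaperones the small subunit RNA, had 54.2, 25.3, 48.0, 35.2 and 25.9 RPM in place replicates and 0, 2.24, 16.3 and 69.2 RPM in silent replicates, and Mterf4, which directs an rRNA methyltransferase to the large subunit, had 0, 3.499, 0.0527, 18.1 and 1.38 RPM and 15.9, 24.6, 9.33 and 12.9 RPM. The log2 folds were 2.22 (SE 1.05) and −2.43 (SE 1.10). They were the only genes of the 6 lists at an unadjusted p under 0.05 (limma, adjusted p = 0.895 for both). Of all genes tested, 5.46% were at that p in either direction, and the groups overlapped for Eral1 and for Mterf4.

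Of 14 translation factors, 8 folds were positive and 6 negative, with Gfm1 (1.31, SE 0.86), an elongation factor, and Mtif3 (1.39), an initiation factor, at the smallest p. The count turned to 5 positive and 7 negative without place replicate 4 or silent replicate 3, to 6 and 7 without place replicate 5, to 6 and 6 without place replicate 2, to 4 and 10 with the term for genes detected and to 11 and 3 with the oligodendrocyte level as a term. Of 19 genes that charge mitochondrial tRNAs, 7 were positive and 12 negative, with Mars2 (−0.94, SE 0.52) and Aars2 (−1.60, SE 0.96), the methionyl and alanyl enzymes. That became 9 and 8 without silent replicate 4, 9 and 9 without place replicate 2 or 3, and 13 and 6 with the oligodendrocyte term. Of 17 genes of mitochondrial DNA expression and its regulation, 9 were positive and 8 negative, with Ssbp1 (0.73, SE 0.39), the single-strand binding protein, and Yy1 (−1.37, SE 0.75). Without silent replicate 1 these were 6 and 11, without silent replicate 3 or place replicate 1 they were 8 and 9, and with the term for genes detected 5 and 12. The gene of the factor whose core sequence is in 8 member promoters, Yy1, was at 2.35, 90.9, 58.9, 91.2 and 53.9 RPM in place and 123, 62.6, 115 and 115 RPM in silent libraries, lowest in place replicate 1 and overlapping between the groups (limma, adjusted p = 0.895). Of 7 messenger RNAs of the mitochondrial genome tested, 6 were positive and 1 negative, with mt-Nd4 (1.51, SE 1.01) and mt-Nd2 (0.99, SE 0.81). Only 2 were positive and 5 negative without place replicate 3 (median log2 fold −0.26) or with the oligodendrocyte term (−0.52), and 3 and 4 without silent replicate 4 (−0.08). The summed level of the 10 messenger RNAs of the mitochondrial genome with recovered reads, tested or not, was 142 to 1435 RPM in place libraries. It was 282 to 329.7 RPM in silent libraries, and highest in place replicate 3. RNA of the mitochondrial genome is not made in the nucleus, and how it came into libraries of collected nuclei was not tested. The 82 cytosolic ribosomal protein genes tested had 35 positive and 47 negative folds and a median log2 fold of −0.16.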

How the data were processed

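The deposited table gives a normalized read signal for 9 libraries and 31052 genes; per the submitters' processing notes STAR, HTSeq and the GRCm39 build were used, with no versions, and the annotation, the counting's strand setting and the normalization tool were not given in any source used. The values, tested on the file, are whole reads times 1 number per gene, which matched a TMM factor per gene (trimmed mean of M-values) within 0.01 on the log2 scale. Dividing by it gave whole reads for 23952 of 24128 genes above 0 in at least 2 libraries, all 78 members among them. Genes without a match were left out, so the match of those kept follows from the procedure. For some genes seen in fewer libraries the trimming ranks were read off the values. For 165 genes the number came from the factor alone. The 8894 genes above 0 in all 9 libraries all matched. The 6924 genes seen in 1 library were left out as well, and all genes left out held 0.0654% of the deposited values. On simulated reads of 499 genes the step returned all reads (100%). These were made with the same factor, from genes seen in several libraries. The result thus checks the arithmetic, and neither how the deposited table was made nor the genes seen in few libraries.

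Reads were scaled to a common total per library. Genes at 1 or more RPM in at least 4 libraries were tested with limma 3.58.1 (R 4.3.3, intensity trend, two-sided, no covariate) on log2(RPM + 1) for place minus silent cells, adjusted by Benjamini-Hochberg over 14146 genes. Count models were not run. In simulated data for place against silent with 14109 genes, 176 of 200 genes changed 8-fold were called (88%), and 6 of 182 calls were wrong. The changed genes were drawn only from genes of higher mean level, and the simulated SD was capped at 1 on the log2 scale. The SD between libraries is larger than the standard error of the fold it gives. The standard errors of Mrpl14, Mrpl46 and Mrps35 are already above 1, and members with somewhat smaller ones can exceed the cap too. The 88% thus does not hold for low or widely spread members. Members named in the text were the 5 with the smallest p in each direction, the 5 highest and 5 lowest per kilobase, a list of members by role, and 2 genes of each further list. The gene family was picked for description, and the lists and roles were chosen, with earlier results of these data known, although the rule for members reads symbols alone. Alternatives covered scaling, the factor per gene, the added constant, the filter, voom, 2 covariates, members sharing exons and each library left out.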

Additional observations from a re-analysis of the deposited data

Results flagged for a closer look

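Within a group of 5 or 4 libraries, a highest or lowest library was looked for that stood apart from the others by more than Dixon's 95% limit on the gap over the range. Of 68 groups looked at, 9 held such a library. The limit is set for a rate of 1 in 20, or 3.4, in independent values with a normal spread. These values include zeros, and many of the members were picked by p or level in the same data. The 9 can therefore not be set against the 3.4. Silent replicate 4 stood apart in 3 of them, with a summed Mrpl level of 1998 RPM, Mrpl44 at 48.4 RPM and Mrpl45 at 45.3 RPM, each above the other silent libraries. Silent replicate 3 stood above the others with Mrps25 at 45.3 RPM, and with Mrpl36 at 0.859 RPM, where the other 3 had no reads. In place cells, Mrps34 was set apart at 5.19 RPM in replicate 2, Mrpl33 at 74.9 RPM in replicate 3 and Mrpl11 at 29.9 RPM in replicate 4, all on the high side. Mrpl12 was set apart on the low side, at 0 RPM in place replicate 1.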

How the results depend on the processing

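No member passed an adjusted p of 0.05 under any of the 21 alternatives, by limma or voom; the smallest adjusted p of any member over them was 0.673. For the 5 members with the smallest p in each direction, whose choice largely fixes the sign of the fold, the adjusted p ran from 0.673 to 0.9995 over 193 refits; the members named for level or role were not followed in this way. With settings other than leaving out a library, the log2 fold ran from 1.24 to 5.49 for Mrpl36, from 0.02 to 3.13 for Mrps35 and from −3.80 to −0.65 for Mrps34. The median fold of the members ran from −0.08 to 0.21 on the log2 scale with 1 library left out (30 to 42 negative folds) and from −0.03 (quantile normalization) to 0.20 (deposited values with TMM scaling and 1 added, chosen after seeing the data) otherwise. Members at an unadjusted p under 0.05 were 0 to 3 higher and 0 to 2 lower with 1 library left out (limma), the most without silent replicate 4. The share of all genes at that p was taken for the full set of libraries alone, so these counts support nothing about the members. Without place replicate 1, 2 genes of all genes were called, neither a member. The difference in the summed Mrpl level, place minus silent, ran from −64.3 to 145 RPM and that in the summed Mrps level from −143 to −79.5 RPM with 1 library left out. Where members sharing exons were left out, 52 remained, with a median of 0.03. No paired analysis was possible because the labels give no replicate numbers that the place and silent libraries share. Depth limits what can be said of a member without reads to 0.134 to 0.214 RPM, by counting error alone.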
